A study of Mus musculus with 4 samples.

Results

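Goblet cells of the intestinal epithelium make the mucus gel. The 9 genes described here encode that gel and the proteins made with it: Muc2, Fcgbp, Clca1, Zg16, Tff3, Spink4, Agr2, Spdef and Retnlb. They were taken by symbol from the 31054 features of 4 single-cell libraries, and each symbol matched 1 feature. No measured value set the choice, but earlier results of these data were known when it was made. Values cover the 15800 cells with 500 or more genes detected and no more than 20% of counts from mitochondrial genes. All mice carried Bmi1-GFP, a fluorescent reporter of the Bmi1 locus, and sorted intestinal epithelial cells were taken at embryonic day 12.5 (E12.5), at E17.5, from adults and from irradiated adults. At E12.5 the dissected tissue was the intestine, and from E14.5 on the small intestine. The dose and timing of irradiation, the adult age, the number of animals and the sorting gates are not given in the sources used here. Each group was 1 library, so there is no replicate check and no test, and every interval below is a 95% interval for counting error alone.

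Muc2 is the gel-forming mucin of intestinal mucus. Agr2 is a protein disulphide isomerase of the endoplasmic reticulum that is needed to make the mucin, and Spdef is a transcription factor of goblet cell maturation. Fcgbp, Clca1 and Zg16 are secreted into the mucus: Fcgbp is a large protein that binds mucin, Clca1 is a protease that acts on the mucus, and Zg16 is a lectin that binds bacteria. Tff3 is a trefoil peptide of mucosal repair, Spink4 has a Kazal-type protease inhibitor domain, and Retnlb is a resistin-like protein with antimicrobial activity. Goblet cells and the antimicrobial Paneth cells of the crypt base both arise from secretory progenitors, and Atoh1 is the transcription factor that specifies this lineage.

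In the GRCm38 mouse genome (GENCODE M21 annotation), Muc2 (ENSMUSG00000025515) lies at chr7:141690340-141754693 on the plus strand, between the mucin genes Muc6 and Muc5ac. Fcgbp (ENSMUSG00000047730) lies on the same chromosome at chr7:28071236-28120862, plus strand, and Zg16 (ENSMUSG00000049350) at chr7:127050156-127087328, minus strand. Clca1 (ENSMUSG00000028255) is at chr3:145003817-145032776 on the minus strand, between Clca4a and Clca2. Tff3 (ENSMUSG00000024029) is at chr17:31125306-31129646, minus strand, next to Tff2, and Spdef (ENSMUSG00000024215) is at chr17:27714352-27728955, minus strand. Agr2 (ENSMUSG00000020581) is at chr12:35992907-36004087, plus strand, next to its relative Agr3. Spink4 (ENSMUSG00000028415) is at chr4:40920052-40931395, plus strand, and Retnlb (ENSMUSG00000022650) at chr16:48816856-48818892, plus strand, next to Retnla. Reads of the relatives Agr3, Tff2, Retnla and the other Clca genes are counted under their own symbols.

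Of the 9 genes, Muc2, Fcgbp, Agr2 and Spdef had a promoter window in the RefSeq table (GRCm38.p6). Those of Muc2 and Fcgbp are printed because the mucin defines the cells described below and Fcgbp was detected in each of the 102 cells with at least 3 Muc2 counts at E17.5. Both run 5′ to 3′ over the 250 bases before the annotated start, at chr7:141690090-141690339 and chr7:28070986-28071235 on the plus strand. Capitals mark CAGNTG, the E-box core read by basic helix-loop-helix factors such as Atoh1.
Muc2: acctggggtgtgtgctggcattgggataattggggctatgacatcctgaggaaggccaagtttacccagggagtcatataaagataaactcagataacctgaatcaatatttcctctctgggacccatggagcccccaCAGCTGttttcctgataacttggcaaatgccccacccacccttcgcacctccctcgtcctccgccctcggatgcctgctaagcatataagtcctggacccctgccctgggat
Fcgbp: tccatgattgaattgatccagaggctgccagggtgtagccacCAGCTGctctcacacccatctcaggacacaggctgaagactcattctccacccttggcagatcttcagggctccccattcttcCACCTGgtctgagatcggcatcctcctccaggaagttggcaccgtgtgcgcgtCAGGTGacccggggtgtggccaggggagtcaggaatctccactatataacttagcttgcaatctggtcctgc
The Muc2 window held 1 match, from base -112 to -107. The Fcgbp window held 3, at bases -208 to -203, -125 to -120 and -72 to -67. CAGNTG is common: searched on both strands it was in 44.8% of 32851 mouse windows of this length, and it was found in neither the Agr2 nor the Spdef window. Of the other motifs searched on both strands, CCGGAT (in 4.94% of windows) and TGTTTAC (3.17%) had no match in the 4 windows, and TTTATNG (9.81%) matched once in Agr2, from base -48 to -42. A match is a string of letters and not a measured binding site.

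Counts are unique molecular identifiers (UMIs), each 1 captured RNA molecule, and a level is given as CPM, the gene's share of summed UMIs per 1e+06. Levels are compared for 1 gene between libraries or cells, not between genes. The libraries gave 4226, 4602, 3788 and 3184 kept cells (E12.5, E17.5, adult, irradiated adult), with 31908663 to 89064972 UMIs and a median of 3699.5 (adult) to 18637.5 (E12.5) UMIs per cell. Pairs of libraries shared 1 to 7 kept cell barcodes. eGFP, the reporter transcript, stood at 22.9, 1.10, 1.72 and 12.5 CPM in the 4 libraries, and Bmi1 at 15.7, 10.3, 11.6 and 14.5 CPM. The labelled cell type was intestinal epithelium. At E17.5, 563 of the 4602 cells carried at least 6 of 10 pancreatic acinar markers and 265 at least 4 of 8 mesenchymal markers. Below, each cell is counted in 1 group only, which left 562 acinar-marker cells (12.2%) and 259 mesenchymal-marker cells.

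Across all kept cells, the 9 genes together took 0.00365% of the E12.5 UMIs, 0.235% at E17.5, 0.461% in adults and 2.16% after irradiation. Whether a higher level came from more cells of a type or from more RNA in each cannot be told apart in such sums, and the cell-level values below bear on it. The libraries also differed in which sorted cells they held, so differences between them cannot be told apart from differences in the sort.

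Muc2 stood at 0.213 CPM at E12.5 (19 UMIs in 19 cells), 10.7 at E17.5 (821 UMIs), 54.1 in adults (1725 UMIs) and 647 after irradiation (26761 UMIs). Its lowest level was at E12.5 and its highest after irradiation, 11.96 times the adult level (interval 11.4 to 12.6). Fcgbp had the same order, with 1.30, 67.8, 171 and 1232 CPM. Clca1 measured 2.12 CPM at E12.5, 27.5 at E17.5, 30.4 in adults and 388 after irradiation. The adult level of Clca1 was 1.11 times that at E17.5 (1.03 to 1.20) by summed UMIs but lower, at -1.24 on the log2 scale, with each cell weighted equally. The irradiated adult was 12.8 times the adult (11.97 to 13.6). Zg16, the lectin, had 1 UMI at E12.5 and levels of 57.2 CPM at E17.5, 31.9 in adults and 6532 after irradiation. The last was 205 times the adult level (192 to 218), the largest ratio of the 9 genes for that pair.

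Tff3 stood at 26.6, 1218, 1451 and 5417 CPM in the 4 libraries. It was the member with the most UMIs at E12.5, 2372, and its adult and E17.5 levels differed by a ratio of 1.19. Spink4 had 6 UMIs at E12.5 and levels of 332, 1571 and 4589 CPM in the later libraries. Agr2 stood at 2.95, 624, 1297 and 2769 CPM, so the irradiated adult was 2.13 times the adult (2.11 to 2.16). Spdef, the transcription factor, did not follow this order, with 3.18 CPM at E12.5, 12.9 at E17.5, 5.70 in adults and 16.3 after irradiation. Retnlb had no UMI in either embryonic library, where the exact interval reaches 0.0414 CPM (E12.5) and 0.0480 CPM (E17.5). It had 55 UMIs in adults and 39 after irradiation, 1.72 and 0.942 CPM. Adult levels of scarce members moved with the cell filter: with at least 1000 genes and at most 10% mitochondrial UMIs, Retnlb stood at 0.367 CPM and Clca1 at 17.9.

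**Figure D1:**
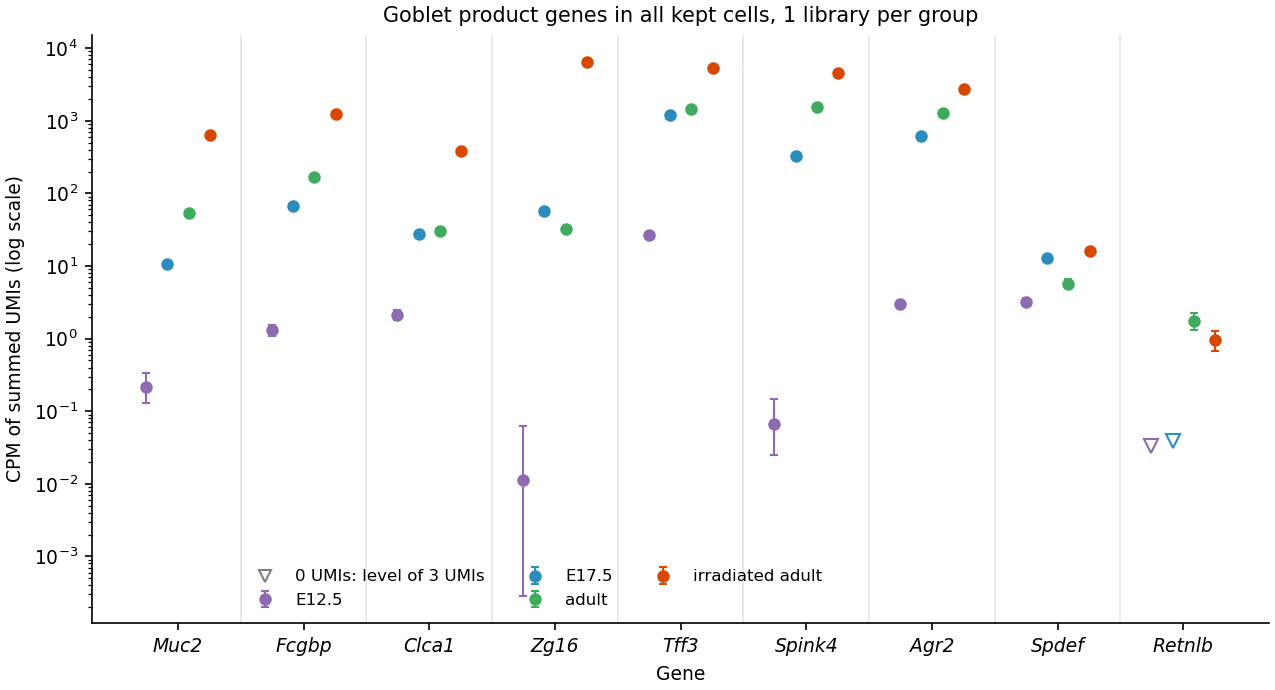
CPM of summed UMIs (log scale) of each of the 9 genes in all kept cells, with a point per library and bars for the counting interval; open triangles stand at the level of 3 UMIs where a library had 0. All of the genes but Retnlb stand highest in the irradiated adult library, and Retnlb stands highest in adults.

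For counts over the genes, a gene was called where its log2 ratio, with 1 CPM added to each level, was at least 1 or at most -1 and it had at least 10 UMIs over the libraries compared. From E12.5 to E17.5, 8 of 8 such members were higher, against 13.3% of all genes, and none was lower, against 13.5%. Their median log2 ratio was 5.18, beside -0.10 over all genes. From E17.5 to adult, 5 of 9 were higher (Muc2 2.24, Spink4 2.24, Retnlb 1.45, Fcgbp 1.32 and Agr2 1.05 on the log2 scale), against 12% of all genes, and Spdef was lower at -1.05, against 12.6%. Retnlb, with 0 UMIs at E17.5, was at least 5.47 higher on the log2 scale with no CPM added, taking 3 UMIs per library as the floor. The median of that pair was 1.05, beside -0.05 over all genes. Spdef was at -0.94 under the stricter filter of at least 1000 genes and at most 10% mitochondrial UMIs, and Agr2 at 0.85 over every deposited barcode. With each cell weighted equally (the mean of each cell's CPM), 1 of the 9 was higher in adults: Muc2 was then at 0.94, Spink4 at 0.62 and Zg16 at -2.52. From adult to irradiated adult, 8 of 9 were higher, against 2.54% of all genes, and none was lower, against 4.42%, with a median of 1.90 beside -0.03. Under the stricter filter Agr2 was at 0.78, short of the limit. E17.5 and the adult are each in 2 of these pairs, so the pairs are not independent.

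Cells with at least 3 Muc2 UMIs numbered 0 of 4226 at E12.5, where the exact interval reaches 0.0873%. There were 102 at E17.5 (2.22%, exact Clopper-Pearson interval 1.81 to 2.68), 81 in adults (2.14%, 1.70 to 2.65) and 182 after irradiation (5.72%, 4.94 to 6.58). The shares at E17.5 and in adults overlapped in their intervals, and the irradiated adult lay above both. These cells were deep: the median was 32099.5 UMIs at E17.5, 51441 in adults and 38794.5 after irradiation, against 11209, 3616 and 8484.5 in the other cells. With each cell thinned to 2000 UMIs, and the 190, 686 and 505 shallower cells left out, the shares were 0.113% (5 cells), 0.258% (8 cells) and 2.95% (79 cells). The most Muc2 UMIs in any cell were 1 at E12.5, 39 at E17.5, 163 in adults and 679 after irradiation.

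At E17.5 the limit of 3 UMIs cut through a continuous range. Cells with 1, 2, 3 and 4 Muc2 UMIs numbered 36, 22, 23 and 19, and 60 had at least 5. In adults they numbered 73, 11, 7 and 4, with 70 at 5 or more. After irradiation they numbered 513, 65, 15 and 2, with 165 at 5 or more. Few irradiated adult cells thus lay just above the limit. At E17.5, the 22 cells with exactly 2 Muc2 UMIs, just outside it, had 2586 CPM of Spink4 and 3609 of Agr2, and the 23 cells with exactly 3, just inside, had 2733 and 2609 CPM. In adults 11 cells had 2 and 7 had 3, of which 6 were rich in Paneth cell RNA. After irradiation 65 cells had exactly 2 Muc2 UMIs with 109 CPM of Zg16, and 15 had exactly 3 with 81.8 CPM. At E17.5 Spink4 was thus similar on either side of the limit, and Agr2 was lower just inside it.

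The cells with at least 3 Muc2 UMIs were of 2 kinds in the adult libraries. A list of 11 Paneth cell genes (Lyz1, Mmp7, Itln1, Ang4, Mptx2 and 6 defensins) took at least 20% of the UMIs in 58 of the 81 adult cells and 85 of the 182 irradiated adult cells, and in 0 of the 102 E17.5 cells. Across those cells the list's share of UMIs had a median of 0.179% at E17.5 (range 0 to 3.22), 50.3% in adults (0.0316 to 79.6) and 17.4% after irradiation (0.0293 to 71.2). The share lay from 10 to 30% in 0, 4 and 19 of these cells, so the adult cells fell mostly to either side of the limit. Below, cells with at least 3 Muc2 UMIs and less than 20% are called Muc2 cells, and the rest Muc2 Paneth-rich cells; this division was made after the values were seen. There were 102 Muc2 cells at E17.5, 23 in adults (0.607% of kept cells, 0.385 to 0.910) and 97 after irradiation (3.05%, 2.48 to 3.70).

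**Figure D2:**
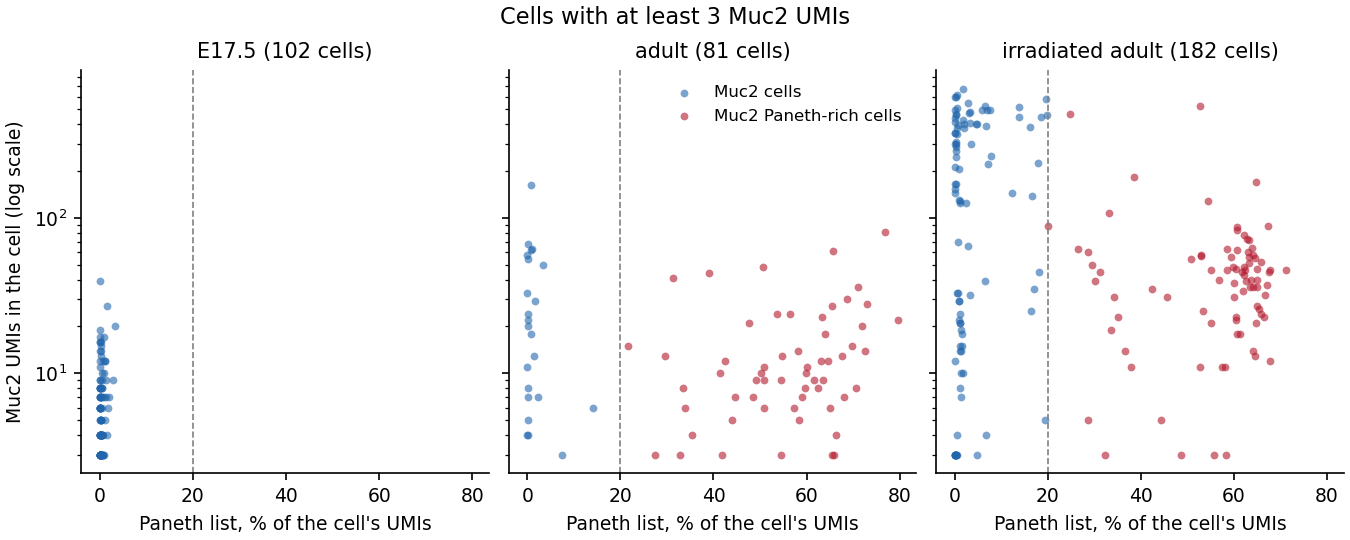
Each point is a cell with at least 3 Muc2 UMIs: the share of its UMIs in the Paneth list in percent (linear axis) against its Muc2 UMIs (log axis), in the 3 libraries that had such cells; the dashed line is 20%. E17.5 cells lie at 3.22% or less, and both adult libraries have cells on either side of the line.

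In the Muc2 Paneth-rich cells the mucin was present with little of the other secreted mucus proteins. Adult Paneth-rich cells had 273 CPM of Muc2, 4.87 of Fcgbp, 0.912 of Zg16 and 0 UMIs of Clca1. The same cells had 11714 CPM of Spink4, above the 4933 CPM of the adult Muc2 cells. After irradiation they had 625 CPM of Muc2, 265 of Fcgbp, 46.4 of Clca1 and 926 of Zg16, but 1 cell held 6125 of the 6892 Zg16 UMIs, and without it the level was 105 CPM. Likewise 1 cell held 947 of the 1970 Fcgbp UMIs and 1 cell 224 of the 345 Clca1 UMIs, and without them Fcgbp was at 141 CPM and Clca1 at 16.6. Muc2 Paneth-rich cells held 76.9% of all Spink4 UMIs and 52.1% of all Muc2 UMIs in the adult library, and 52.3% and 17.4% after irradiation. Spink4 and Muc2 levels summed over the adult library were therefore to a large part levels in Paneth-rich cells. Defensins took much of the total of these cells: Defa24 alone stood at 295296 CPM in adults and 293142 after irradiation, which leaves a smaller share of the total to every other gene. Leaving aside Muc2, by which the cells were chosen, Muc2 cells over Muc2 Paneth-rich cells had 7 of 8 members higher in adults (86.8% of all genes were) and Spink4 lower at -1.25 (1.2% of all genes), and 8 of 8 higher and none lower after irradiation (79.9% and 1.06%).

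Within each library, the other members were set against Muc2. At E17.5, 7 of 7 other members with enough UMIs were higher in cells with at least 3 Muc2 UMIs than in the rest, against 1.05% of all genes, and none was lower, against 9.7%. Their median log2 ratio was 3.04, beside -0.08 over all genes. Clca1 had the highest ratio, 6.18, from 6.04 to 511 CPM, followed by Spink4 at 4.96 and Fcgbp at 4.36. Agr2 stood at 3.04, Spdef at 3.01, Zg16 at 2.29 and Tff3 at 2.18. The Zg16 call rested on 1 cell, without which it was at 0.66 and 6 of 7 were higher, and with cells defined by Fcgbp in place of Muc2 it was at 0.97. In adults 6 of 8 were higher, against 1.13% of all genes, with Tff3 at 0.09 and Agr2 at -0.14, and after irradiation 8 of 8 were higher, against 1.36%. None was lower in either library, against 51.4% of all genes in adults and 68.3% after irradiation, but with at least 1000 genes and at most 10% mitochondrial UMIs adult Tff3 (-1.18) and Agr2 (-1.32) were lower and 4 members higher. The medians were 3.03 and 4.56, beside -1.03 and -1.36 over all genes.

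With Paneth-rich cells left out of the cells with Muc2, 8 of 8 members were higher in adults (8.64% of all genes) and 8 of 8 after irradiation (2.56%), with none lower (24.6% and 23.5%). The medians were then 4.29 beside -0.31 over all genes, and 6.05 beside -0.56. After irradiation the 22 Retnlb UMIs of these cells were all in 1 cell, and without it Retnlb was at -0.13, which leaves 7 of 8 higher. Adult Tff3 was at 1.50 and Agr2 at 1.40, past the limit that they missed with those cells in. Adult Fcgbp, with Paneth-rich cells in, was at 1.22, and at -0.55 under the same stricter filter. Clca1 had the highest ratio in each of the 3 libraries, 6.18, 8.10 and 9.54 (E17.5, adult, irradiated adult). Agr2 had the lowest ratio in both adult libraries, 1.40 and 2.84, and Tff3 was at 1.50 and 3.70.

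**Figure D3:**
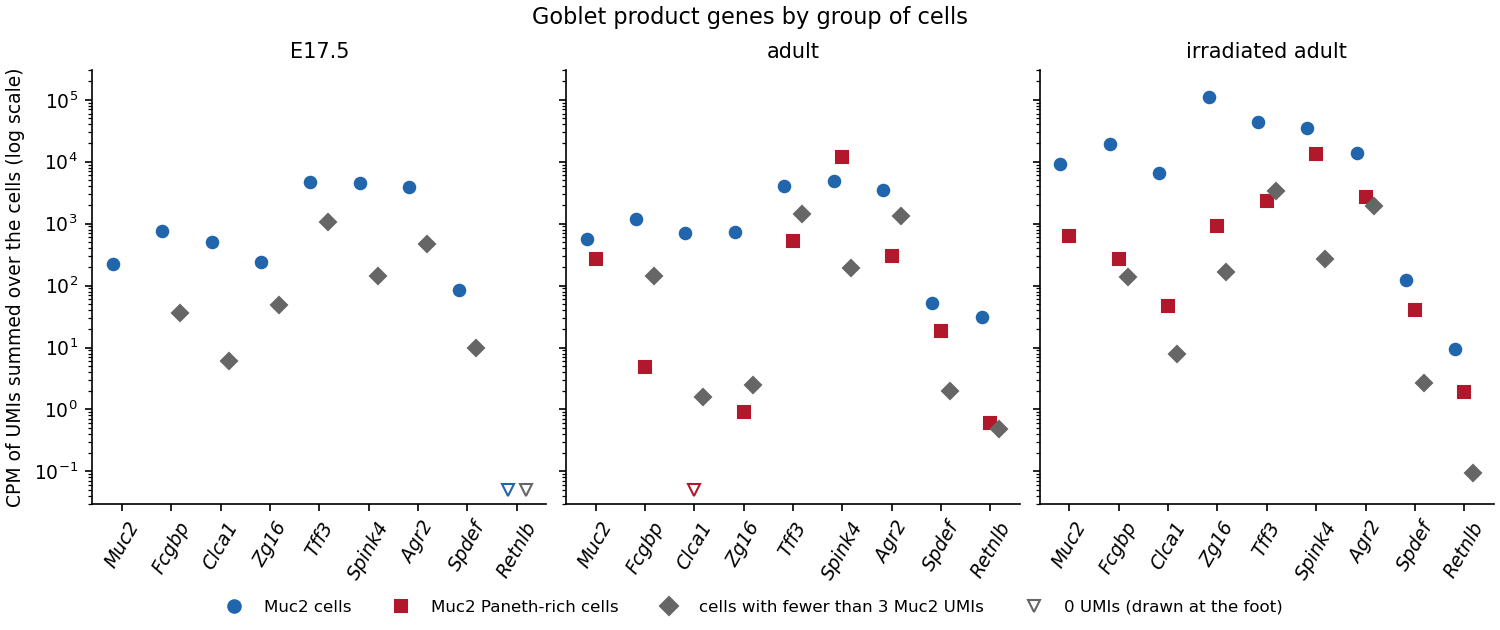
CPM of summed UMIs (log scale) of the 9 genes in Muc2 cells, Muc2 Paneth-rich cells and cells with fewer than 3 Muc2 UMIs, in 3 libraries; open triangles at the foot mark 0 UMIs. Spink4 is higher in adult Paneth-rich cells (11714 CPM) than in adult Muc2 cells (4933 CPM), and Zg16 reaches 110153 CPM in irradiated adult Muc2 cells.

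The level per Muc2 cell was then compared between libraries. Muc2 itself, by which the cells were chosen and whose limit of 3 UMIs depends on depth, stood at 227 CPM at E17.5, 565 in adults and 9163 after irradiation, and is left out of the counts. From E17.5 to adult, Fcgbp stood at 773 and 1172, Clca1 at 511 and 715, Tff3 at 4790 and 4067, Spink4 at 4544 and 4933, Agr2 at 3939 and 3457 and Spdef at 84.9 and 51.7. Tff3, Spink4 and Agr2 differed little, at ratios of 0.849, 1.09 and 0.878. Zg16 (1.58) and Retnlb (4.99) were past the log2 limit, 2 of 8 against 7.09% of all genes. None was lower, against 11.6%, and the median was 0.30 beside -0.09. Zg16 stood at 243 and 732 CPM, but 1 cell held 540 of the 794 UMIs at E17.5 and 1 cell 529 of 948 in adults, and without those cells the levels were 78.1 and 338 CPM. Retnlb had 0 UMIs at E17.5 and 40 in adults, of which 24 were in 1 cell.

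After irradiation, Muc2 cells carried far more of the secreted products. Fcgbp stood at 19031 CPM against 1172 in adults, 16.2 times (15.4 to 17.1). Zg16 stood at 110153 against 732 CPM, 151 times (141 to 161). However, 1 of the 23 adult cells held 529 of the 948 Zg16 UMIs, and without it the adult level was 338 CPM. The interval does not cover that spread between cells. Tff3 was 10.6 times as high (43271 against 4067 CPM), Clca1 9.24 times (6605 against 715), Spink4 7.12 times (35103 against 4933) and Agr2 4.07 times (14061 against 3457). Spdef, the transcription factor, differed least among the genes that were higher, at 2.38 times (1.82 to 3.15; 123 against 51.7 CPM). In all, 7 of 8 members other than Muc2 were higher, against 14.4% of all genes, with a median log2 ratio of 3.02 beside -0.27. No cell held more than 6.24% of a higher member's UMIs among the irradiated adult Muc2 cells. Among the 23 adult Muc2 cells the top cell held from 14.3% (Spink4) to 55.8% (Zg16). Retnlb was lower at -1.62, against 23.4% of all genes lower, but its 22 UMIs were all in 1 irradiated adult cell.

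The 9 genes together took a median of 1.43% of a Muc2 cell's UMIs at E17.5 (range 0.289 to 18.2), 1.02% in adults (0.0448 to 8.30) and 30.7% after irradiation (0.0576 to 56.9). The share reached 10% in 4 of 102, 0 of 23 and 76 of 97 cells. It was under 1% in 31, 11 and 10 of them, so the irradiated adult still held a few cells with as little as the other libraries. In Muc2 Paneth-rich cells the median was 1.01% in adults and 1.31% after irradiation, where 5 of 85 cells reached 10%. The irradiated adult Muc2 cells were shallower, with a median of 21094 UMIs against 57464 in adults and 32099.5 at E17.5. A fixed limit of Muc2 UMIs asks for a larger Muc2 share of the total in a shallower cell. The part of this in the shares and levels of the other members was not tested. The median number of other members detected per Muc2 cell was 6, 6 and 7, and at least 6 were detected in 85 of 102, 18 of 23 and 85 of 97 cells. With cells thinned to 2000 UMIs the medians were 4, 4 and 6.

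**Figure D4:**
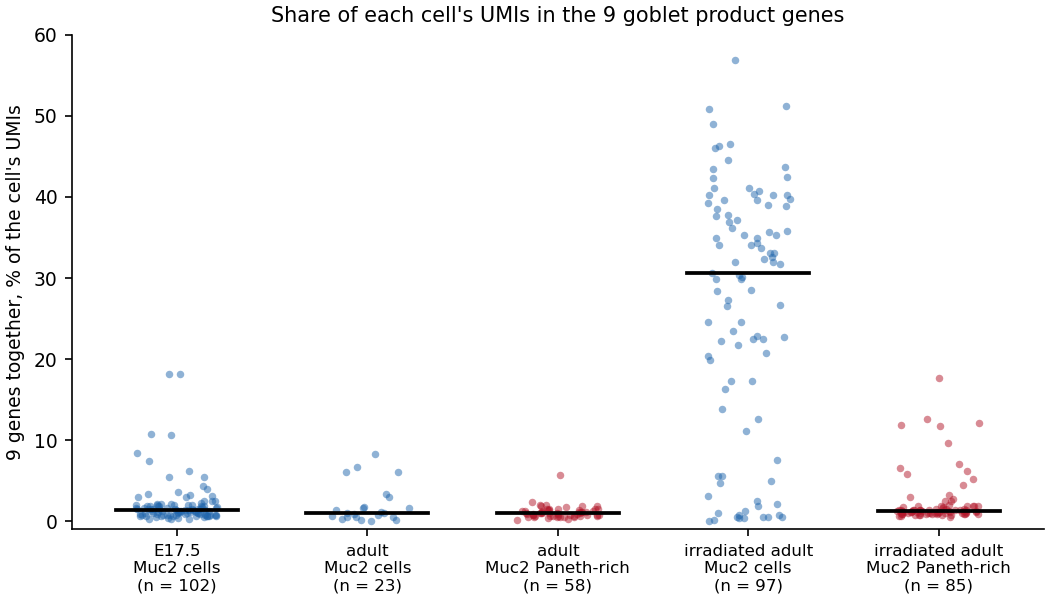
Share of each cell's UMIs in the 9 genes together, in percent (linear axis), with a point per cell and a bar at the median, for Muc2 cells and Muc2 Paneth-rich cells. The irradiated adult Muc2 cells have a median of 30.7%, and the other 4 groups have medians from 1.01 to 1.43%.

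Markers of other cell types moved with the irradiated adult result. In irradiated adult Muc2 cells against adult ones, 9 of 9 tuft markers with enough UMIs were higher (summed 567 against 40.9 CPM), as were 8 of 10 enteroendocrine markers (7346 against 900 CPM, summed) and 8 of 11 Paneth genes (57611 against 11724 CPM, summed). Of all genes, 14.4% were higher in this comparison and 23.4% lower. Of the 97 cells, 39 passed the limit of 5 enteroendocrine markers and 25 that of 4 tuft markers. The part of these transcripts in the result was not tested. Mucus genes outside goblet-type cells were also higher there. Tuft-marker cells had at least 4 tuft markers and fewer than 3 Muc2 UMIs. Of these, 331 of 668 after irradiation and 1040 of 1133 in adults carried fewer than 5 enteroendocrine markers. In those with fewer than 5, Zg16 stood at 222 CPM after irradiation against 4.51 in adults, Muc2 at 27.2 against 3.26 and Tff3 at 363 against 144. After thinning, 43.1% of them had a Zg16 UMI after irradiation, beside 34.8% of all kept cells, and 0.733% beside 0.967% in adults. For Muc2 the shares were 6.15% beside 10.1%, and 0.733% beside 2.22%. The median depth of these tuft-marker cells was 4452 UMIs after irradiation and 4187.5 in adults. Shares at or below theirs are read as background, and the part that free RNA had in them was not tested.

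In cells with fewer than 3 Muc2 UMIs, 3 of the 8 other members were higher after irradiation than in adults (Zg16 5.60, Clca1 1.77 and Tff3 1.21 on the log2 scale), against 2.95% of all genes, and none was lower, against 3.69%. These 3 were also higher in the tuft-marker cells described above, which serve as background. Zg16 stood there at 222 against 4.51 CPM, Clca1 at 8.49 against 1.71 and Tff3 at 363 against 144. The part of background in these ratios was not tested. Fcgbp in the cells with fewer than 3 Muc2 UMIs was at -0.04, with a ratio of 0.973 (0.932 to 1.02). The difference in its summed level between the libraries thus lay in cells with Muc2. Groups of the other cells differed in opposite directions. Fcgbp was lower after irradiation in cells with at least 5 enteroendocrine markers that fell in no other marker group (162 against 246 CPM). It was higher in all cells with at least 4 tuft markers (95.5 against 39.4 CPM). Of these tuft-marker cells, 337 of 668 after irradiation and 93 of 1133 in adults also had at least 5 enteroendocrine markers. Without those, Fcgbp stood at 18.7 against 6.99 CPM. From E17.5 to adult in all cells with fewer than 3 Muc2 UMIs, 2 of 8 were higher (Fcgbp 1.94 and Agr2 1.46) against 14.2%. In that pair 3 were lower (Zg16 -3.84, Spdef -1.84 and Clca1 -1.43) against 11.8%. From E12.5 to E17.5, 7 of 7 were higher, against 13.3%, and none was lower, against 13.5%.

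The members differed in which cells held their UMIs. Clca1 was held most by Muc2 cells, which had 78.9% of its UMIs at E17.5, 95.5% in adults and 96.3% after irradiation. Fcgbp was shared with endocrine-marker cells. These carried at least 5 of 10 enteroendocrine markers, had fewer than 3 Muc2 UMIs and fell in no tuft, Paneth, acinar or mesenchymal group. Before cells of those other groups were set aside, 1795, 1926 and 2324 cells reached the limit of 5 (E17.5, adult, irradiated adult). After irradiation 337 of them were counted as tuft-marker cells. Endocrine-marker cells held 27.9% of the Fcgbp UMIs at E17.5, 63.0% in adults and 6.53% after irradiation. Tff3 lay mostly in endocrine-marker cells at E17.5 (69.8%) and in adults (75.2%), and Muc2 cells held 45.2% of it after irradiation against 37.6% in endocrine-marker cells. Agr2 had 52.3%, 80.9% and 45.5% of its UMIs in endocrine-marker cells. Levels in those cells stood at 1376, 2403 and 2533 CPM for Agr2, 3581, 2499 and 4093 for Tff3, and 79.8, 246 and 162 for Fcgbp (E17.5, adult, irradiated adult). Muc2 in the same cells was at 0.329, 2.08 and 18.7 CPM. These libraries were rich in such cells: 1764 at E17.5, 1822 in adults and 1915 after irradiation.

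Zg16 at E17.5 was held by acinar-marker cells, which had 3533 of its 4402 UMIs (80.3%), found in 432 of 562 cells at 456 CPM, and Muc2 cells held 18.0%. Zg16 is also a protein of pancreatic secretory granules, after which it was named. In both adult libraries, where no cell reached the limit of acinar markers, Muc2 cells held 93.0% and 95.5% of its UMIs. Acinar-marker cells had 26.3% of the Spdef UMIs at E17.5 as well, at 33.6 CPM.

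**Figure D5:**
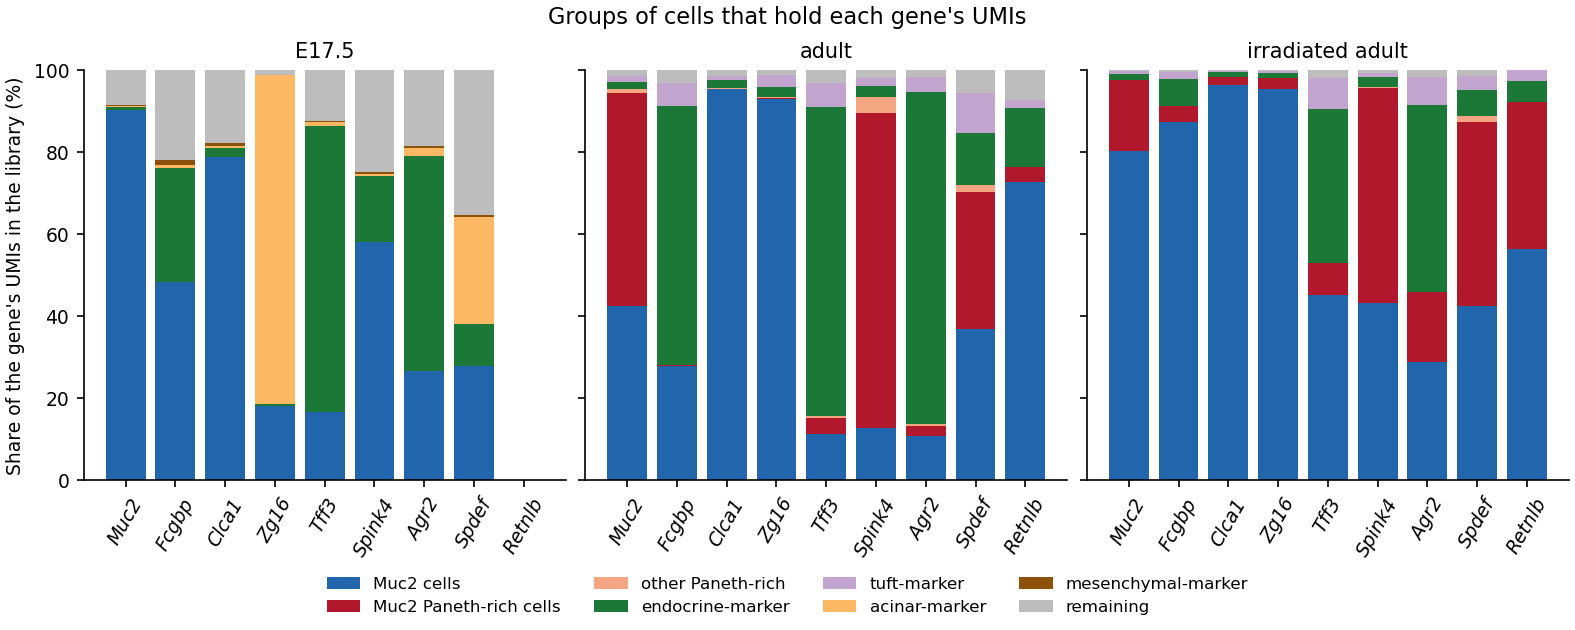
For each gene and library, bars split the gene's UMIs in percent (linear axis) among groups of cells defined by Muc2 UMIs and by marker genes. At E17.5 acinar-marker cells hold 80.3% of Zg16, and in adults endocrine-marker cells hold 80.9% of Agr2 and Muc2 Paneth-rich cells 76.9% of Spink4.

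Within endocrine-marker cells Agr2 was concentrated in a subset. Cells with at least 10 Agr2 UMIs numbered 442 of 1764 at E17.5, 397 of 1822 in adults and 758 of 1915 after irradiation, and held 95.3%, 95.9% and 95.3% of the Agr2 UMIs of these cells. At least 3 Tff3 UMIs were found in 96.4%, 97.5% and 98.5% of them, against 63.4%, 42.4% and 74.0% of the other endocrine-marker cells. The Agr2 cells were deeper, with medians of 9486 against 7516 UMIs, 10453 against 3294 and 13661 against 7409. Hormone genes, picked after their values were seen, also differed by CPM. Cck, the hormone cholecystokinin, stood at 68699 CPM in the Agr2 cells against 9705 in the others at E17.5, at 70181 against 9397 in adults and at 89015 against 10186 after irradiation. Gip was lower in the Agr2 cells, at 2401 against 10862, 4215 against 109252 and 2239 against 68339 CPM, and Sst, somatostatin, at 86.0 against 11136, 198 against 24665 and 2055 against 33576 CPM. Endocrine-marker cells with at least 10 Fcgbp UMIs, 99 in adults and 69 after irradiation, had more Tph1, the enzyme that makes serotonin (5004 against 1226 CPM in adults and 3897 against 1202), and less Cck (7522 against 34174 and 8322 against 53440 CPM). At E17.5 the 21 such cells had more Tph1 (719 against 294 CPM) and also more Cck (49639 against 24776 CPM). Tac1 went the other way from Tph1 in the Fcgbp cells, at 285 against 867 CPM at E17.5, 95.5 against 131 in adults and 283 against 829 after irradiation. The endocrine type of the Fcgbp cells was not tested.

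Genes of goblet cells from a list of 27 (transcription factors, secretory machinery and secreted proteins) were mostly higher in Muc2 cells. At E17.5, 20 of 27 were higher in Muc2 cells than in cells with fewer than 3 Muc2 UMIs and none was lower, with a median log2 ratio of 2.33. In adults 16 of 26 were higher and 2 lower (median 1.58), and after irradiation 21 of 27 were higher and none lower (median 2.88). Atoh1, which specifies secretory cells, stood at 63.2 against 3.49 CPM at E17.5, 45.5 against 1.43 in adults and 105 against 1.77 after irradiation. Guca2a, the gut hormone guanylin, had log2 ratios of 4.02, 6.18 and 6.64, and the chemokine Ccl6 had 5.82, 3.78 and 7.49. For 16 genes of mucin glycosylation, 7 of 14 were higher and 1 lower at E17.5, 4 of 15 higher and 2 lower in adults, and 9 of 15 higher and 1 lower after irradiation. The other 11 mucins did not share this direction, with 0 of 8 higher and 2 lower at E17.5, 0 of 4 higher and 1 lower in adults, and 1 of 6 higher and 1 lower after irradiation. Among relatives of the members, Agr3, the neighbour of Agr2, was lower in Muc2 cells, at -2.78, -3.29 and -2.20 on the log2 scale. All-gene medians and shares for these comparisons are those given with the members above.

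Between libraries, 19 of the 27 goblet genes were higher and 1 lower from E12.5 to E17.5 (median 1.52), against 13.3% and 13.5% of all genes. From E17.5 to adult 7 were higher and 3 lower (median -0.25), against 12% and 12.6%. The 3 lower ones were thus near the all-gene share. From adult to irradiated adult 13 were higher and none lower (median 0.79), against 2.54% and 4.42%. Glycosylation genes were higher in 9 of 14, 5 of 15 and 2 of 15 cases, and lower in 0, 1 and 0, beside the same shares. In Muc2 cells alone, irradiated adult against adult, 14.4% of all genes were higher and 23.4% lower. There 19 of 27 goblet genes were higher and none lower (median 1.33), and 11 of 14 glycosylation genes were higher (median 1.42). Guca2a was at 3.54, Ccl6 at 3.41, the sulphotransferase Chst4 at 3.00 and the fucosyltransferase Fut2 at 2.69. Family members of the secreted products did not follow, with 2 of 9 higher and 4 lower in these Muc2 cells, against 14.4% and 23.4%. Clca3b stood at -3.70 and Clca4b at -3.50.

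Cell division and stem cell genes differed between the Muc2 cells of the libraries. At least 3 UMIs over 15 G2/M genes were found, after thinning to 2000 UMIs, in 61 of 102 Muc2 cells at E17.5 (59.8%, 49.6 to 69.4), in 14 of 22 in adults (63.6%, 40.7 to 82.8) and in 2 of 81 after irradiation (2.47%, 0.300 to 8.64). Thinning left out 0, 1 and 16 shallower cells, and before it the counts were 86 of 102, 21 of 23 and 15 of 97. The thinned shares over all kept cells of these libraries were 30.3%, 3.42% and 1.31%, and adult Muc2 Paneth-rich cells had 7 of 58. In irradiated adult against adult Muc2 cells, 15 of 15 G2/M genes were lower (median -3.61 on the log2 scale, summed level 186 against 2227 CPM), as were 6 of 6 crypt base stem cell genes (median -2.24, 119 against 2115 CPM), beside 23.4% of all genes lower. The adult Muc2 cells thus carried more division and stem cell transcripts, and less of 7 of the 8 goblet products other than Muc2, than those after irradiation. At E17.5 the Paneth defensin Defa24 was found in 88 of 102 Muc2 cells, at 2391 CPM. In adult and irradiated adult Muc2 cells it stood at 5814 and 31807 CPM by summed UMIs, but the median cell had 564 and 4366 CPM. Cells with at least 4 tuft markers and fewer than 3 Muc2 UMIs had 2336 and 1133 CPM in those libraries. In adults Defa24 was detected in 3787 of the 3788 kept cells, and 1 Muc2 cell held 3097 of the 7534 UMIs of the Muc2 cells.

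Genes whose pattern was most like Muc2 were ranked by the lowest of their 3 log2 ratios (E17.5, adult, irradiated adult) between cells with at least 3 Muc2 UMIs and the rest. The 10 highest were Defa17 (5.49), Ccl6 (5.47), Defa24 (5.38), Ccl9 (4.82), Guca2a (4.02), Tpsg1 (3.83), Atoh1 (3.34), AY761184 (3.23), Cracr2a (3.14) and Mmp7 (3.05), and 4 of them are Paneth or defensin genes. With Paneth-rich cells left out, the highest were Tpsg1 (4.74), Ccl9 (4.25), Guca2a (4.02), Atoh1 (3.84), Rep15 (3.79), Ccl6 (3.78), Mptx1 (3.77), Creb3l4 (3.29), Pla2g10 (3.19) and Cracr2a (3.14).

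At E12.5 most members were scarce. Each of the 19 Muc2 UMIs was in a different cell. Clca1 reached 3 UMIs in 20 cells, which held 142 of its 189 UMIs (75.1%). These cells had no Muc2, Fcgbp, Zg16, Spink4 or Agr2 UMI. All 4226 cells together held only 19, 116, 1, 6 and 263 UMIs of those genes, so 0 in 20 cells says little. The leading gene of the 20 cells after Clca1 was the posterior homeobox gene Hoxb13, at 294 against 5.05 CPM in the other cells. Pdx1, a homeobox gene of the duodenum and pancreas, had 0 UMIs in the 20 cells. Agr2 reached 3 UMIs in 23 cells, which held 105 of its 263 UMIs, and here Pdx1 stood at 78.9 against 11.4 CPM. Of these 23 cells, 8 had Fcgbp UMIs, at 10.6 against 1.21 CPM in the other cells. Tff3 was spread over 1375 of 4226 cells, with at least 3 UMIs in 239. The median depth of the Clca1, Agr2 and Tff3 cells was 25373, 27846 and 36846 UMIs. Cells with fewer than 3 UMIs of the gene had 18609, 18589 and 17921.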

How the data were processed

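Each of the 4 groups was 1 library (10x 3' kit, version 3 chemistry, HiSeq 2500, per the labels' protocols). The authors deposited raw counts (UMIs per gene and barcode); the submitters' processing notes name Cell Ranger 3.1.0 and mm10. From these counts, cells with 500 or more genes and no more than 20% of UMIs from mitochondrial genes entered, and putative doublets stayed in. UMIs were summed over cells and scaled to CPM, and log2 ratios used 1 CPM as pseudocount. Levels have exact Poisson intervals, shares exact Clopper-Pearson intervals and ratios exact conditional binomial intervals, all at 95% and for counting error only. Tools were scanpy 1.11.5 (Scrublet), edgeR 4.0.16 (TMM factors), scipy 1.17.1 and pandas 2.3.3 in Python 3.11.15. The summing and calling steps were tested on simulated data.

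Genes named are the 9 members, up to 4 examples per list, and the 10 genes most like Muc2 (at least 50 UMIs; mitochondrial, ribosomal, immunoglobulin, sex-linked and predicted genes left out); hormone and homeobox genes were added after their values were seen. The members and lists were chosen with earlier results of these data known. Groups of cells were defined by at least 3 Muc2 UMIs, then by marker counts; the limit of 6 acinar markers was set after the data were seen. Alternatives were other cell filters, thinning, Muc2 limits, pseudocounts, scalings, doublet removal, and, added after seeing the data, leaving out Paneth-rich cells, the Paneth list or each gene's highest cell. Of the feature IDs, 30934 of 31054 (99.6%) matched GENCODE M21, which was used for positions.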

Additional observations from a re-analysis of the deposited data

Results flagged for a closer look

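The ratio of Agr2 between cells with at least 3 Muc2 UMIs and the rest went in different directions in the libraries: 3.04 at E17.5, -0.14 in adults and 1.46 after irradiation, on the log2 scale. The difference between libraries was not tested, as each is 1 library. In adults, 58 of the 81 cells with at least 3 Muc2 UMIs were Paneth-rich and had 303 CPM of Agr2. Without those cells the adult ratio was 1.40.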

How the results depend on the processing

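No paired analysis was possible because each group is 1 library and no test was made. The counts of members past the limit changed by at least 1 member in 21 of 81 recomputed values, and by over 1.5 times in 1: with equal weight for each cell, 1 of 9 members was higher in adults than at E17.5, against 5. For cells with at least 3 Muc2 UMIs over the rest the counts ranged from 6 to 7 at E17.5, 4 to 8 in adults and 7 to 8 after irradiation. The share of cells with at least 3 Muc2 UMIs moved with depth and with the limit. At E17.5 (2.22%) it was 0.113% after thinning, 2.69% with at least 2 UMIs and 1.30% with at least 5. In adults (2.14%) it was 1.38% over every barcode, 3.64% with at least 1000 genes and at most 10% mitochondrial UMIs, 0.258% after thinning and 0.607% without Paneth-rich cells. After irradiation (5.72%) the same 4 gave 3.64%, 7.30%, 2.95% and 3.05%, and at least 2 UMIs gave 7.76%. The median log2 ratio from E12.5 to E17.5 (5.18) was 5.68 by the mean of each cell's CPM, and 5.55 and 2.77 with pseudocounts of 0.1 and 10 CPM. From E17.5 to adult (1.05) it was 1.10 under the stricter cell filter and 1.16 with the Paneth list left out of the total. From adult to irradiated adult (1.90) it was 1.85 over every barcode, 1.63 under the stricter filter, 1.93 with doublets removed, 1.97 with TMM scaling, 1.92 by the mean of each cell's CPM, 1.83 without mitochondrial and ribosomal genes in the total, 1.97 without the Paneth list in it and 2.37 with at least 100 UMIs. For cells with at least 3 Muc2 UMIs against the rest, the median at E17.5 (3.04) was 3.01 in epithelial cells, 5.88 after thinning, 3.29 by the mean of each cell's CPM and 3.40 with cells defined by Fcgbp. In adults (3.03) it was 4.08 after thinning, 3.88 and 1.42 with pseudocounts of 0.1 and 10 CPM, 1.98 with cells defined by Fcgbp and 4.29 without Paneth-rich cells. After irradiation (4.56) it was 5.46, 3.73 (10 CPM), 2.74 and 6.05, and 6.01 without Paneth-rich cells and each gene's highest cell, where Retnlb turned from 2.10 to -0.13. Fcgbp in adults turned from 1.22 to -0.55 under the stricter filter. The cause of these moves was not tested. At the depths here, thinned shares rest on 5 (E17.5) and 8 (adult) cells.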
